A study of Mus musculus with 6 samples.

Results

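The p53 gene Trp53 and 9 genes of its pathway were described in megakaryocyte-erythroid progenitors, bone marrow precursors of the red cell and platelet lineages. The 10 genes were chosen by name (Trp53, Mdm2, Cdkn1a, Ccng1, Trp53inp1, Phlda3, Bbc3, Gadd45a, Eda2r and Zmat3) from the 55487 genes of the deposited table, and all 10 were found. The study addressed what a short fast does to red cell formation. Polyadenylated RNA of sorted cells was sequenced in bulk in 3 control libraries and in 3 libraries from mice fasted for 6 h. All mice were wild-type C57BL/6 aged 8 weeks, and the labels do not say whether a library held 1 mouse or a pool, so p-values measure the spread between these libraries only.

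p53 is a transcription factor that is held low by the ubiquitin ligase Mdm2 and set free by DNA damage, nucleolar stress and other insults. It then raises genes that halt the cell cycle, repair DNA, alter metabolism or kill the cell, and it raises Mdm2, which closes a feedback loop. Much of its control acts on the protein, so the Trp53 transcript alone does not report p53 activity. In the erythroid lineage, p53 activity is best known for the anaemias of ribosomal protein loss.

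p53 binds a pair of 10-base decamers, each with a CNNG core in which both N are A or T. Such decamers were searched on both strands in the RefSeq promoters of GRCm38.p6, which run from 250 bases before to 50 after a start site. Of the 10 genes, 8 had a promoter there, in 11 windows, while Trp53inp1 and Zmat3 had none in the table. A decamer matching the p53 consensus at every position lay in 5 of these 11 windows, 1 each for Trp53, Mdm2, Cdkn1a, Ccng1 and Gadd45a, against 8.36% of all 32851 windows. Cdkn1a had the closest pair, with 19 of 20 bases matched, a score reached by 0.055% of all windows. Trp53 and Bbc3 had pairs with 17 of 20 bases matched, reached by 0.572% of windows. These pairs and the single decamers are shown as the best matches to the p53 consensus in these windows, read along the strand of the gene with the core in capitals:
Cdkn1a, chr17:29090928-29090947, plus strand, outside annotated genes: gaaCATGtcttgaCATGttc
Trp53, chr11:69580284-69580303, plus strand, outside annotated genes: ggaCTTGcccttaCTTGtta
Bbc3, chr7:16309486-16309505, plus strand, in an intron of Bbc3: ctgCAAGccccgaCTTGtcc
Mdm2, single decamer, chr10:117710935-117710944, minus strand, outside annotated genes: gaaCTTGcct
Ccng1, single decamer, chr11:40755462-40755471, minus strand, outside annotated genes: gggCAAGcct
Gadd45a, single decamer, chr6:67037438-67037447, minus strand, in an exon of Gadd45a: gggCTAGccc

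The Cdkn1a window also held another full decamer further upstream. The stretch just before the annotated gene start (chr17:29090850-29090975, GRCm38, plus strand) show both, with the 3 cores in capitals:
Cdkn1a upstream: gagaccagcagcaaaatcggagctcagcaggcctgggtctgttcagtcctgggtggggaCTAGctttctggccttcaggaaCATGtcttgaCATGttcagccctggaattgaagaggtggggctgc
A match describes these letters only and is not evidence of binding in these cells. Windows without a match say nothing about more distant sites.

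Libraries held 22445970 to 30246110 counts in the control group and 12797144 to 18225191 in the fasted group. Odorant and vomeronasal receptor genes, which blood cells do not use, gave a background rate in counts per kilobase of exon. Spread over all exons, this background came to 6.35% ± 2.35 of the counts in control and 13.1% ± 1.54 in fasted libraries (SD, n = 3 each). The groups did not overlap, and the two-sided exact permutation p was 0.1, the lowest value possible with 3 libraries a group. The 10641 genes with a mean count of at least 5 times the background over all 6 libraries were therefore scaled and tested. Control library 1 had correlations of log2 CPM across genes of 0.953 to 0.970 with the other libraries, which reached 0.958 to 0.984 among themselves. These ranges overlapped, since control library 3 and fasted library 3 correlated at 0.958. Of 8 megakaryocyte-erythroid markers, 7 lay above 5 times the background, with Gata1 at 158 to 390 CPM and Klf1 at 238 to 697 CPM. All 8 granulocyte and monocyte markers were also above it. Their summed level was 3395, 10958 and 16923 CPM in control libraries 1, 2 and 3 and 3875, 2229 and 862 CPM in fasted libraries 1, 2 and 3. The summed levels of stem and multipotent (8 genes), lymphocyte (8), mature erythroid (6) and mast cell and basophil (6) markers were 815 to 1065, 70.5 to 111, 206 to 427 and 118 to 222 CPM in control libraries. In fasted libraries these sums were 539 to 989.9, 108 to 199, 346 to 436 and 61.1 to 123 CPM, and no marker of any list was at 0 in all libraries. In bulk RNA, fewer cells of a type and less RNA per cell cannot be told apart.

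None of the 7 p53 pathway genes above the background threshold was called as changed with fasting by edgeR's quasi-likelihood test. This does not show that they stayed the same. The test called 0 of 7 at a Benjamini-Hochberg adjusted p under 0.05, and 0% of all 10641 genes tested. At an unadjusted p under 0.05 it passed 0 of the 7 and 2111 of all genes (19.8%, of which 11.5% were higher and 8.3% lower after fasting). DESeq2 called 503 of the same 10641 genes (4.73%; 3.07% higher, 1.65% lower) and none of the 7, and limma-voom called 0 in all and 2109 unadjusted. Without control library 1, the edgeR count over the 7 genes was again 0. The median log2 fold change, fasted minus control, was 0.29 over the 7 genes and 0.021 over all genes tested. With scaling by all 36508 genes that passed the expression filter, the median over the 10 genes was 0.0055 and that over all genes 0.32. The groups overlapped in CPM for all 7, while they were separate for 27.3% of all genes tested. CPM here are counts scaled to library size after TMM on the tested genes.

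**Figure D1:**
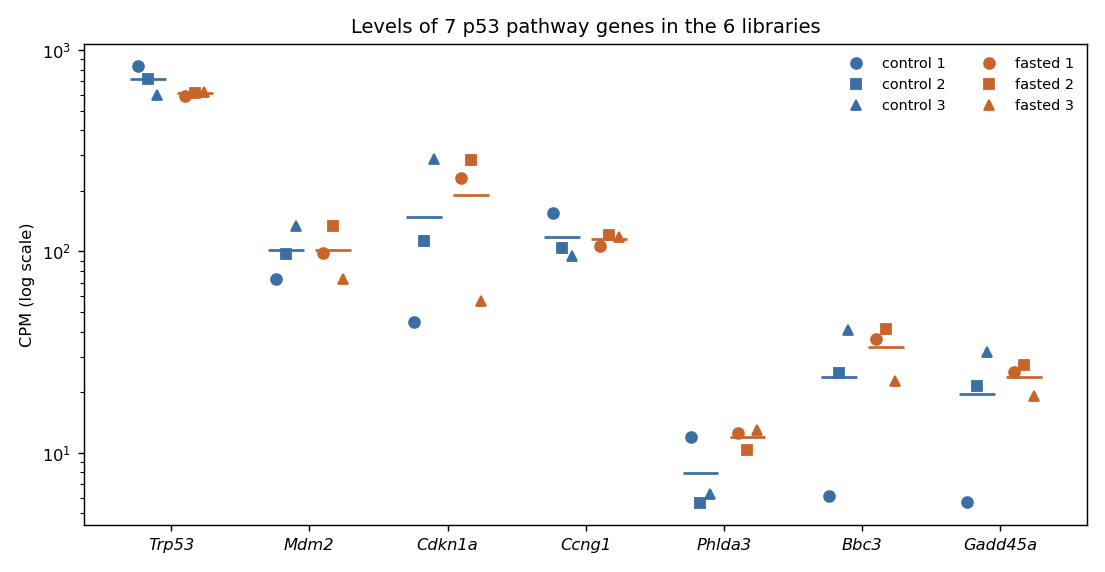
CPM on a log axis for the 7 tested genes in each control library (blue) and fasted library (orange); symbols mark the replicate number and bars the group mean. The groups overlap for every gene, and Cdkn1a spans 44.4 to 288 CPM within the control group alone.

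Per kilobase of exon, Trp53 was by far the most abundant of the 10 genes. Its per-length level, CPM divided by exonic length in kilobases, averaged 163.9 over the 6 libraries, and its lowest library (147) lay above the highest value of every other gene. Cdkn1a followed with 47.8 (12.5 to 80.9), Ccng1 with 33.1 (27.1 to 44.1) and Mdm2 with 19.9 (14.3 to 26.3). The ranges of Cdkn1a and Ccng1, and of Cdkn1a and Mdm2, overlapped, while Ccng1 stayed above Mdm2 over their whole ranges. Bbc3 (13.5, 2.87 to 19.5), Gadd45a (12.3, 3.23 to 17.9) and Phlda3 (6.39, 3.61 to 8.31) came next and overlapped one another. Trp53inp1 had 2.89, Zmat3 2.01 and Eda2r 0.779, against a background of 0.321 to 1.24 on the same per-length scale. The level of Trp53 was at or above that of 97.0% of the tested genes, and that of Phlda3 at or above 27.6%.

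Trp53 (ENSMUSG00000059552.13, GRCm38 chromosome 11, 69580359 to 69591873, plus strand) encodes p53 itself. It had 835, 719 and 598 CPM in control libraries 1, 2 and 3 and 594, 613 and 619 CPM in fasted libraries 1, 2 and 3. Control libraries 1 and 2 were above every fasted library, and control library 3 lay inside the narrow fasted range. The means were 717 ± 118 and 609 ± 13.3 CPM (SD, n = 3 each), and the log2 fold change was -0.24 (SE 0.14, 95% interval -0.56 to 0.082), with an edgeR adjusted p of 0.373. It was below 0 with each library left out in turn, from -0.38 without control library 3 to -0.11 without control library 1. When all 36508 genes that passed the expression filter set the scaling, it was -0.78 with an edgeR adjusted p of 0.0571. That scaling placed the median of the 10641 genes themselves at -0.50.

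Mdm2 (ENSMUSG00000020184.15, chromosome 10, 117688875 to 117710758, minus strand), the ligase that marks p53 for destruction and is itself a p53 target, had nearly equal group means. It had 73.1, 97.2 and 133 CPM in control libraries 1, 2 and 3 and 97.8, 134 and 72.7 CPM in fasted libraries 1, 2 and 3. Each group held a low, a middle and a high library over almost the same range. The means were 101 ± 30.4 and 101 ± 30.6 CPM (SD, n = 3 each), and the log2 fold change was 0.0029 with an SE of 0.27 (edgeR adjusted p 0.997), and the 95% interval of -0.61 to 0.62 does not show that the groups are alike. Its sign depended on the scaling and on single libraries, at -0.19 and -0.061 without control libraries 1 and 2 and at -0.28 without fasted library 2.

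Cdkn1a (ENSMUSG00000023067.14, chromosome 17, 29090976 to 29100727, plus strand) encodes p21, the inhibitor of cyclin-dependent kinases through which p53 halts the cycle. Its counts were 1245, 2665 and 5689 in the control and 2666, 4486 and 752 in the fasted libraries, in replicate order. The CPM were 44.4, 113 and 288 for the controls and 232, 286 and 56.7 for the fasted libraries. The lowest and highest library differed 6.48-fold within the control group and 5.05-fold within the fasted group, so libraries of one treatment differed far more than the treatments did. The means were 148 ± 125 and 191 ± 120 CPM (SD, n = 3 each), and the log2 fold change was 0.37 (SE 0.87, 95% interval -1.82 to 2.56), edgeR adjusted p 0.835. Without control library 3 it was 1.27, without fasted library 3 it was 0.81, and it was -0.063 without control library 1 and -0.064 without fasted library 2. An unconfirmed gene model on the minus strand, AC167363.2, overlaps Cdkn1a and had 27 to 87 counts per library.

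Gadd45a (ENSMUSG00000036390.8, chromosome 6, 67035096 to 67037457, minus strand), which encodes a stress sensor acting in growth arrest and DNA repair, varied widely among the control libraries only. It had 5.703, 21.5 and 31.6 CPM in control libraries 1, 2 and 3 and 25.1, 27.3 and 19.1 CPM in fasted libraries 1, 2 and 3. Control library 1 was far below all other libraries, and the fasted libraries lay inside the control range. The log2 fold change was 0.29 with an SE of 0.53 (edgeR adjusted p 0.787), and it was -0.15 without control library 1 and 0.80 without control library 3. The non-coding E230016M11Rik on the plus strand overlaps it and had 158 to 250 counts per library, against 160 to 625 for Gadd45a. The strand setting of the counting is not given in the sources used here, so reads of these partners cannot be told apart.

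Bbc3 (ENSMUSG00000002083.13, chromosome 7, 16308393 to 16318205, plus strand) encodes Puma, a BH3-only protein that starts cell death. It had 6.096, 24.8 and 40.5 CPM in control libraries 1, 2 and 3 and 36.9, 41.3 and 22.6 CPM in fasted libraries 1, 2 and 3. Control library 1 was again the lowest by a wide gap. The means were 23.8 ± 17.2 and 33.6 ± 9.79 CPM (SD, n = 3 each), and the log2 fold change was 0.50 with an SE of 0.64 (edgeR adjusted p 0.686). Without control library 1 it was 0.044, and without control library 3 it was 1.11.

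Ccng1 and Phlda3 had their highest control value in control library 1, where Cdkn1a, Bbc3 and Gadd45a had their lowest. Ccng1 (ENSMUSG00000020326.7, chromosome 11, 40748552 to 40755311, minus strand) encodes cyclin G1, which recruits a phosphatase to Mdm2. It had 155, 103 and 95.1 CPM in control libraries 1, 2 and 3 and 106, 121 and 117 CPM in fasted libraries 1, 2 and 3. The fitted log2 difference was -0.035 (SE 0.19; edgeR adjusted p 0.932). It was 0.21 without control library 1 and 0.019 without fasted library 1. Phlda3 (ENSMUSG00000041801.5, chromosome 1, 135766119 to 135769136, plus strand) encodes a small protein that keeps the kinase Akt from the membrane. It had 11.98, 5.63 and 6.27 CPM in control libraries 1, 2 and 3 and 12.6, 10.3 and 12.96 CPM in fasted libraries 1, 2 and 3. The fasted libraries exceeded control libraries 2 and 3, and control library 1 lay among them. Its log2 fold change of 0.58 (SE 0.32, 95% interval -0.14 to 1.31) had the smallest adjusted p of the 7 genes (edgeR, 0.338), and it was 1.01 without control library 1 (edgeR adjusted p 0.160) and 0.35 without control library 2. With scaling by all 36508 genes, Phlda3, Bbc3 and Cdkn1a came to 0.0095, 0.098 and 0.0015, Gadd45a and Mdm2 to -0.13 and -0.45, and Ccng1 to -0.58 (edgeR adjusted p 0.147 to 0.999 over these 6). Phlda3 lay at 8.40 times the background, the nearest of the 7 to the threshold.

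**Figure D2:**
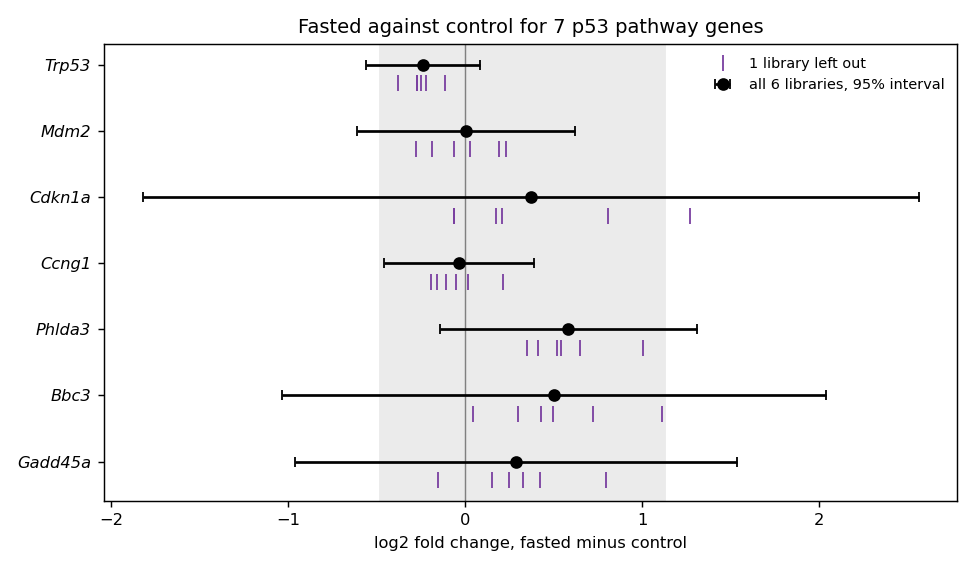
The log2 fold change (fasted minus control) of the 7 tested genes with its 95% interval (black), and the value with each library left out in turn (purple ticks); the grey band runs from the 5th to the 95th percentile of all 10641 tested genes. Every interval spans 0, and the one of Cdkn1a runs from -1.82 to 2.56.

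Trp53inp1, Zmat3 and Eda2r lay below 5 times the background, at 3.71, 2.53 and 0.989 times, and were not part of the test above. Trp53inp1 (ENSMUSG00000028211.11, chromosome 4, 11156431 to 11174379, plus strand) encodes a stress-induced protein that promotes p53 activity and autophagy. Its counts were 441, 347 and 250 in the control and 266, 316 and 347 in the fasted libraries, where the background alone would give 58.2 to 104 counts. On the CPM scale it had 15.7, 14.7 and 12.6 in the controls and 23.1, 20.2 and 26.2 after fasting, so the groups did not overlap. After the background was subtracted it had 13.6, 11.1 and 7.83 CPM in control and 15.1, 13.5 and 18.9 CPM in fasted libraries, and fasted library 2 was then just below control library 1.

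Zmat3 (ENSMUSG00000027663.12, chromosome 3, 32334792 to 32366014, minus strand), encodes an RNA-binding zinc finger protein. It had 18.1, 12.5 and 20.9 CPM in control libraries 1, 2 and 3 and 28.7, 24.5 and 33.1 CPM in fasted libraries 1, 2 and 3, without overlap. With the background subtracted it had 14.5, 6.13 and 12.4 CPM in control and 14.5, 12.8 and 20.3 CPM in fasted libraries, with overlap. Eda2r (ENSMUSG00000034457.10, chromosome X, 97333840 to 97377216, minus strand), a receptor gene of the tumour necrosis factor receptor family, had counts of 105, 66 and 85 in the controls and 80, 75 and 66 after fasting. Only control library 1, at 1.98 times, exceeded the background that its length predicts, and the other 5 libraries lay between 0.757 and 0.982 times. Its transcript was therefore not detectable above background in those 5 libraries. Its groups did not overlap in CPM either, with means of 3.61 in control and 5.57 in fasted libraries. The background predicted for its length was separate as well, at 1.89 to 4.37 CPM in control and 6.01 to 7.28 in fasted libraries. How often the groups are separate among other genes of like low level was not tested.

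In the fit of all 36508 genes, which called 4.97% of them (1.15% higher, 3.82% lower), Trp53inp1, Zmat3 and Eda2r had log2 fold changes of 0.15, 0.22 and 0.11 (edgeR adjusted p 0.716, 0.571 and 0.851). With scaling by the 10641 well-expressed genes, a setting that called 14.4% of all 36508 genes (13.7% higher, 0.701% lower), they had 0.69, 0.74 and 0.62 (edgeR adjusted p 0.0619, 0.0532 and 0.221). The share of background in these differences and a change of transcript cannot be told apart for Eda2r. For Trp53inp1 and Zmat3 the same scaling after background subtraction, added after seeing the data, gave 0.63 (SE 0.30) and 0.61 (SE 0.36), with edgeR adjusted p of 0.464 and 0.527.

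**Figure D3:**
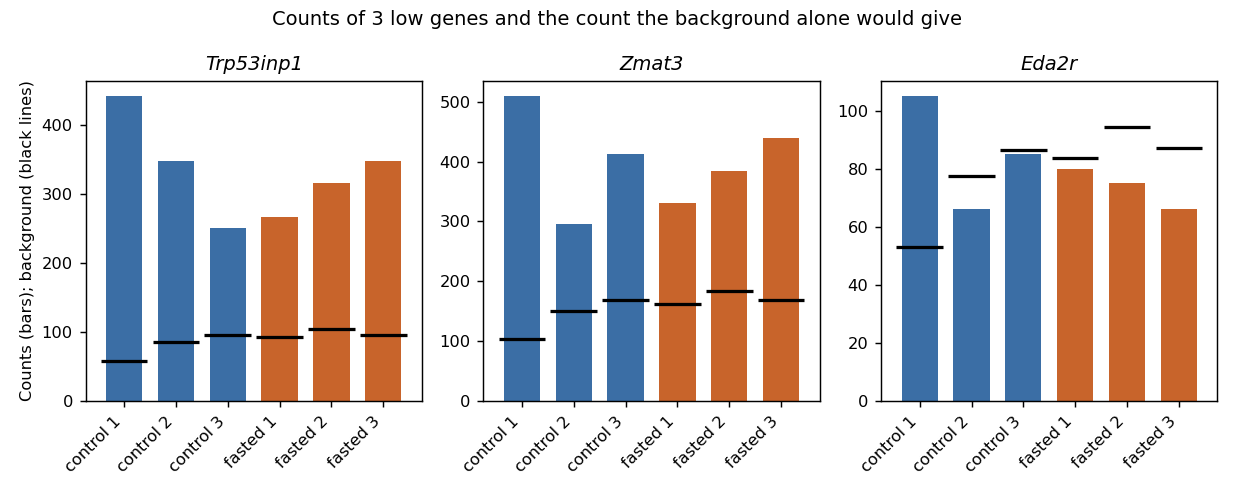
Counts of Trp53inp1, Zmat3 and Eda2r in each library (bars, blue for control and orange for fasted), with the count that the background rate times the gene's exon length would give (black lines). Trp53inp1 and Zmat3 exceed the line in every library, Eda2r in control library 1 alone.

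The spread within groups was wide for Cdkn1a, Bbc3 and Gadd45a. For Cdkn1a it was wide in both groups, while for the other two it lay mostly in control library 1, since Bbc3 spanned 6.65-fold and Gadd45a 5.54-fold among control libraries but 1.83-fold and 1.43-fold among fasted ones. The pooled SD of log2 CPM within groups was 1.31 for Cdkn1a, 1.05 for Bbc3 and 0.93 for Gadd45a, against a median of 0.24 over the 10641 genes. These values were at or above those of 99.1%, 98.2% and 97.3% of tested genes, and of 99.8%, 98.8% and 97.8% of the 500 genes nearest in level. Mdm2 (0.44) and Phlda3 (0.43) were at the 80.1 and 79.7 percentiles, Ccng1 (0.27) at 57.2 and Trp53 (0.17) at 29.7. Cdkn1a and Gadd45a ranked the 6 libraries in 1 order from low to high, namely control 1, fasted 3, control 2, fasted 1, fasted 2 and control 3. Bbc3 differed from it in the last pair, where fasted 2 was above control 3. Mdm2 had the same 3 lower and 3 higher libraries, but control 2 (97.2 CPM) and fasted 1 (97.8 CPM) were nearly equal. Trp53 was highest in control libraries 1 and 2 and fasted library 3, the lower libraries of those genes.

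**Figure D4:**
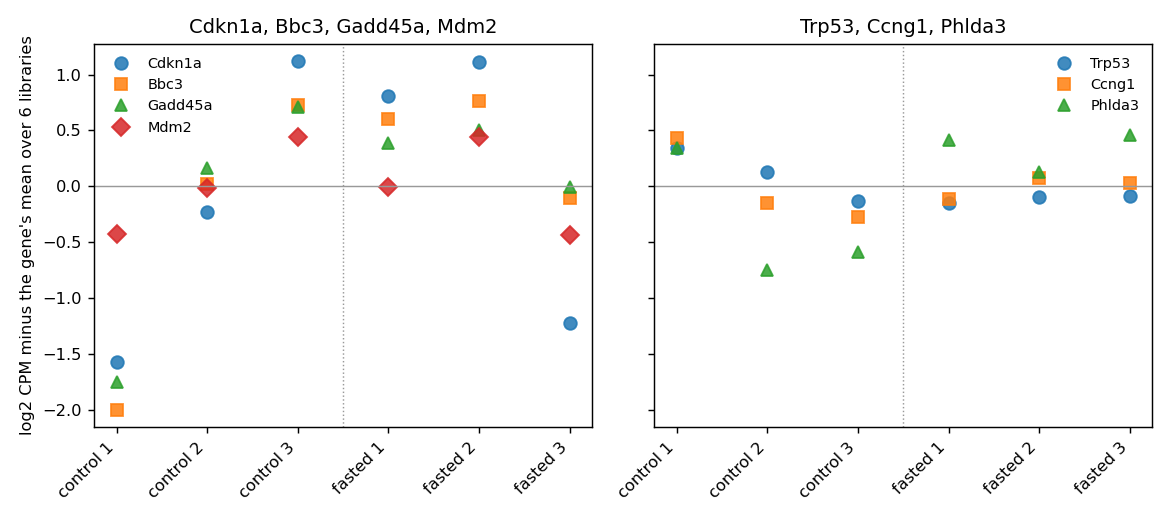
log2 CPM of each gene minus its own mean over the 6 libraries, for Cdkn1a, Bbc3, Gadd45a and Mdm2 (left) and for Trp53, Ccng1 and Phlda3 (right). The left group lies below its mean in control library 1 and above it in control library 3 and fasted library 2. In fasted library 3 Cdkn1a is at -1.22, while Bbc3 (-0.11) and Gadd45a (-0.0075) are close to their means and Mdm2 is at -0.44. Trp53 and Ccng1 stay within 0.43 of their mean.

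Likeness between profiles was measured as the root mean square difference of these centred log2 CPM over the 6 libraries. Among the 21 pairs of the 7 genes, Trp53 and Ccng1 were nearest (0.16), then Bbc3 and Gadd45a (0.18), while Cdkn1a and Phlda3 were farthest (1.34). Of the other 6, Bbc3 was nearest to Cdkn1a (0.55) and Trp53 to Mdm2 (0.48). A small difference need not mean a shared direction, since Trp53 varied little. Trp53 and Mdm2 lay on opposite sides of their means in the control libraries and fasted library 2, at 0.34 and -0.43 in control library 1. Both were below their means in fasted libraries 1 and 3. Outside the pathway genes, the 3 tested genes nearest to Cdkn1a were Plaur (0.18), Tubb6 (0.18) and the gene model Gm45640 (0.21). Plaur, the urokinase receptor gene, had 14.7, 42.5 and 91.2 CPM in control libraries 1, 2 and 3 and 68.1, 108 and 24.1 CPM in fasted libraries 1, 2 and 3. The 3 nearest to Trp53 were Msrb2 (0.029), Blvra (0.040) and the unnamed transcript 2900097C17Rik (0.041).

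Some marker levels also differed between these libraries. The 8 megakaryocyte-erythroid markers summed to 2617, 1883 and 1167 CPM in control libraries 1, 2 and 3 and to 1513, 1641 and 1980 CPM in fasted libraries 1, 2 and 3. The 3 libraries with the highest sums (control 1, fasted 3 and control 2) were those with the least Cdkn1a, Bbc3 and Gadd45a. Fasted libraries 1 and 2 did not follow the reverse order. Gata1, Klf1, Gfi1b and Kit were each highest in these 3 libraries, while Itga2b, Epor, Tal1 and Zfpm1 were not. Itga2b was lowest in fasted library 3, at 94.4 CPM. The 8 immediate early genes Fos, Fosb, Jun, Junb, Egr1, Ier2, Ier3 and Atf3, a list added after seeing the data, summed to 2070, 6726 and 6636 CPM in control libraries 1, 2 and 3 and to 9094, 8723 and 8035 CPM in fasted libraries 1, 2 and 3. This sum was lowest in control library 1, as were the 3 genes. Control library 3, the highest for Cdkn1a, was next lowest in the sum, just below control library 2. The genes of the list differed in this. Fos, Jun and Ier3 were lower in control library 3 than in control library 2, and the other genes of the list were higher. The granulocyte and monocyte markers given above had another order than Cdkn1a, since control library 1 and fasted library 1 had like sums. The part of these markers in the spread of Cdkn1a was not tested.

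**Figure D5:**
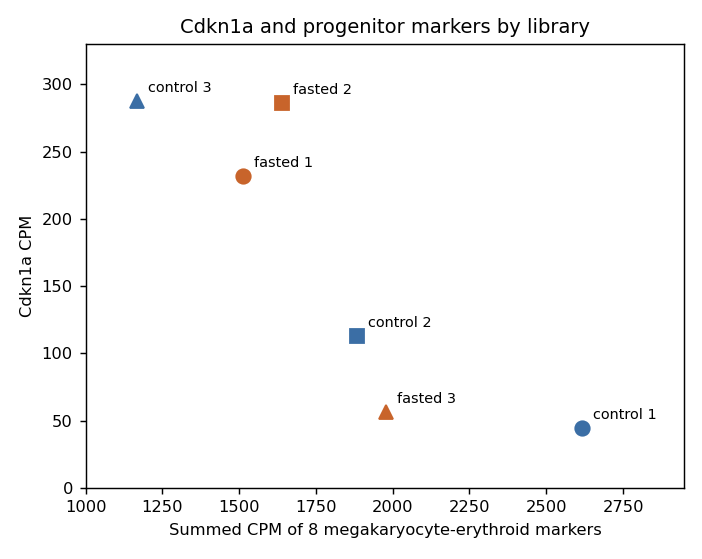
Cdkn1a CPM against the summed CPM of 8 megakaryocyte-erythroid markers in each library (the x axis does not start at 0). Cdkn1a runs from 44.4 CPM at a marker sum of 2617 in control library 1 to 288 CPM at 1167 in control library 3.

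Ratios of per-length levels inside a library do not depend on scaling between libraries. Mdm2 stood at 0.0697, 0.108 and 0.177 of the Trp53 level in control libraries 1, 2 and 3 and at 0.131, 0.173 and 0.0934 in fasted libraries 1, 2 and 3. The Cdkn1a level was 0.0605, 0.179 and 0.547 of that of Trp53 in the controls and 0.444, 0.531 and 0.104 of it after fasting. The ratio of Ccng1 to Trp53 varied least, with 0.213, 0.166 and 0.183 in the controls and 0.206, 0.228 and 0.218 after fasting. Over the 6 ratios computed, two-sided exact permutation tests gave p from 0.2 (Ccng1 to Trp53) to 1, and 0.96 to 1 after Benjamini-Hochberg adjustment. With 3 against 3 libraries p cannot go below 0.1.

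The wider pathway was read from 71 other genes in 6 lists, of which 53 were tested and 0 called (smallest edgeR adjusted p 0.173). At an unadjusted p under 0.05, 8 of the 53 passed (15.1%, against 19.8% of all genes tested), 5 higher and 3 lower in fasted libraries. Among the kinases and activators of p53, 10 of 12 were tested and 2 passed at that level, both higher. Prkdc, the DNA-dependent protein kinase, had 61.9 ± 1.89 CPM in control and 78.3 ± 2.74 CPM in fasted libraries (SD, n = 3 each), which is 0.34 on the log2 scale (edgeR adjusted p 0.199). Ep300, an acetyltransferase that acts with p53, had 0.39 (edgeR adjusted p 0.238), and Brca1 and Kat5 had -0.028 and -0.017 (edgeR adjusted p 0.954 and 0.957). Of the p53 inhibitors 6 of 8 were tested and 0 passed unadjusted. The phosphatase gene Ppm1d had 0.52 and the deubiquitinase gene Usp7 0.13, while Trim28 and Kmt5a had -0.056 and -0.035 (edgeR adjusted p 0.265 to 0.921). The p53 relatives Trp63 and Trp73 lay at 1.42 and 1.19 times the background and were not tested.

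Among other p53 targets of arrest, repair and metabolism, 16 of 25 were tested and 2 passed unadjusted, both higher. Sesn2, which holds back mTORC1 when amino acids are short, had 24.7, 25.96 and 27.4 CPM in control libraries 1, 2 and 3 and 30.6, 39.4 and 40.7 CPM in fasted libraries 1, 2 and 3. The groups did not overlap, and the log2 fold change was 0.51 (SE 0.18, unadjusted p 0.0192, edgeR adjusted p 0.186). The nuclease gene Ercc5 had 0.48 (edgeR adjusted p 0.230), Dcxr -0.36 (0.337) and the damage recognition gene Xpc -0.11 (0.746). Among the death genes 9 of 12 were tested and 0 passed unadjusted. The apoptosome gene Apaf1 had 0.29, the BH3-only gene Pmaip1 0.41 (SE 0.85), Bid -0.31 and Siva1 -0.27, with edgeR adjusted p of 0.286 to 0.814. The list medians were 0.087 for arrest, repair and metabolism and 0.017 for death, beside 0.021 over all genes tested.

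Genes that p53 lowers through p21 and the DREAM repressor complex, mostly of mitosis, had a median of -0.24, with 10 of 12 below 0. The median over all genes tested was 0.021. At an unadjusted p under 0.05, 3 of the 12 were lower and 1 higher, beside 8.3% lower and 11.5% higher of all genes tested. After adjustment 0 passed. The mitotic kinase gene Cdk1 had 121, 129 and 114 CPM in control libraries 1, 2 and 3 and 84.4, 93.1 and 102 CPM in fasted libraries 1, 2 and 3, without overlap. Its log2 fold change was -0.38 (SE 0.13, unadjusted p 0.0157, edgeR adjusted p 0.173). Cdc20, which activates the anaphase ligase, had -0.37 (edgeR adjusted p 0.188), and the phosphatase gene Cdc25c and the transcription factor gene Foxm1 had 0.51 and 0.35 (edgeR adjusted p 0.185 and 0.551). Of the granulocyte and monocyte markers, 6 of 8 were lower in fasted libraries at an unadjusted p under 0.05 and 0 higher, beside 8.3% of all genes tested lower. The sums of these lists ran in opposite orders within the fasted group but not within the control group. The p21 and DREAM list summed to 1567, 1730 and 1471 CPM in control libraries 1, 2 and 3. It summed to 1184, 1314 and 1547 CPM in fasted libraries 1, 2 and 3, so the groups overlapped in this sum. These markers summed to 3395, 10958 and 16923 CPM in control and to 3875, 2229 and 862 CPM in fasted libraries. The part of the markers in the result was not tested. With scaling by all 36508 genes, the p21 and DREAM list had a median of -0.77, with 12 of 12 below 0. The same scaling lowered the well-expressed genes as a whole, so this is not a separate result about the list. That scaling turned the sign of the other medians, from 0.14 to -0.36 for kinases and activators, from 0.055 to -0.39 for inhibitors, from 0.087 to -0.26 for arrest, repair and metabolism and from 0.017 to -0.48 for death. Of the 71 genes 9 were then called, all lower, 5 of them in the p21 and DREAM list, against 3.82% of all genes called lower, beside a median of -0.50 for the 10641 well-expressed genes.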

How the data were processed

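Raw counts of 6 libraries were deposited by the authors as 1 table, beside the exonic length of each gene. The submitters' processing notes name HISAT2 2.2.1, featureCounts 2.0.1 and GRCm38; the annotation release, strand setting and filters are not given in the sources used here. The general extraction text of the labels describes ground tissue. Of 55487 identifiers, 54349 matched GENCODE M21 including the version, each with an exonic length equal to the deposited one. Without regard to the version 55141 matched, and the remaining identifiers had no gene name there. Every row carried a mouse Ensembl gene identifier.

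Genes, lists and alternatives were chosen with earlier results of these data known. The background rate came from 1464 odorant and vomeronasal receptor genes. The main test used edgeR 4.0.16 in R 4.3.3 (TMM, estimateDisp and glmQLFit with robust settings, group as the only term) on the 10641 of 36508 filterByExpr genes at or above 5 times the background. The threshold was an adjusted p of 0.05. The SE is the log2 fold change divided by the square root of F, and 95% intervals use the moderated degrees of freedom. Profiles used log2 CPM with 0.5 added to each count. The fit was tested on simulated data. DESeq2 1.42.0 and limma 3.58.1 were alternatives, as were other scalings, filters, a replicate block and leaving out each library.

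All 10 genes are named. From each other list the rule names called genes or, with none called, the 2 positive and 2 negative of smallest p, and the 3 genes most like Cdkn1a and Trp53. The search for p53 decamers was planned over wider windows around start sites and was run on the 300-base RefSeq promoters, since no genome sequence was used here.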

Additional observations from a re-analysis of the deposited data

How the results depend on the processing

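The count of p53 pathway genes called was 0 in the main test and under all alternatives but 1: with all genes with a count tested, 1 was called, Trp53 at -0.81 (edgeR adjusted p 0.0352). Over all genes the count was 0 in the main test, 1813 with all filterByExpr genes (420 higher, 1393 lower), 2849 with all genes with a count, 5244 with all filterByExpr genes under the factors of genes at or above 5 times the background (4988 higher), 6 at 3 times the background, 503 with DESeq2 and 2 at an adjusted p under 0.1. Leaving out 1 library gave 0 to 3, with 3 without control library 1 and 3 without control library 3. The other pathway list genes had 9 calls of 70 tested, 10 of 71 and 4 of 70 under the first 3 of these settings and 0 elsewhere. The 9 and the 10 were all lower, beside 1393 of 36508 and 2218 of 52922 of all genes. The 4 were all higher, beside 13.7% of all 36508 genes, so the direction of the calls changed with the scaling. Signs reversed for Mdm2 (RLE -0.019, library totals -0.025, all filterByExpr genes -0.45, all genes with a count -0.48, 3 times the background -0.11, DESeq2 -0.019), Cdkn1a (all genes with a count -0.022), Ccng1 (upper quartile 0.036, 10 times the background 0.047, background subtracted 0.025), Phlda3 (all genes with a count -0.032) and Gadd45a (all filterByExpr genes -0.13, all genes with a count -0.16). Against the fit of all filterByExpr genes they reversed for Trp53inp1 (RLE -0.058, DESeq2 -0.058) and Eda2r (RLE -0.089, DESeq2 -0.089). With 1 library left out, Mdm2 ranged from -0.28 to 0.23, Cdkn1a from -0.064 to 1.27, Ccng1 from -0.19 to 0.21, Gadd45a from -0.15 to 0.80, Trp53inp1 from -0.013 to 0.33 and Eda2r from -0.069 to 0.25. The cause of these reversals was not tested. Background subtraction left Eda2r at 0 in 2 or more libraries of a group, so no value is given. Same-numbered libraries of the groups correlated at -0.15, 0.13 and -0.25 in their deviations. In the labels they share a number, and whether they also shared a batch is not decided by these values. With the replicate block 0 of 10641 genes, 0 of the 7 pathway genes and 0 of 53 list genes were called. Eda2r, Zmat3 and Trp53inp1 are limited by their nearness to background, at 0.989, 2.53 and 3.71 times.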

Other observations

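Among the 53 tested genes of the wider p53 lists, 4 had a spread within groups at or above the 95th percentile of all tested genes, as did 3 of the 7 p53 pathway genes. These 4, singled out after their values were seen, were the polo-like kinase genes Plk3 and Plk2, the death gene Pmaip1 and the antiproliferative gene Btg2, all of which are also known as rapid stress-response genes. Plk3 had 6.56, 45.7 and 98.2 CPM in control libraries 1, 2 and 3 and 69.2, 69.6 and 25.9 CPM in fasted libraries 1, 2 and 3. Pmaip1 had 4.49, 24.3 and 56.2 CPM in control and 35.98, 50.2 and 26.2 CPM in fasted libraries. Plk2 had 8.06, 55.2 and 45.9 CPM in control and 60.9, 60.4 and 41.8 CPM in fasted libraries. Btg2 had 88.7, 497 and 312 CPM in control and 687, 734 and 588 CPM in fasted libraries. Its groups did not overlap, as for 27.3% of all genes tested. The log2 fold change was 1.16 (SE 0.60, 95% interval -0.33 to 2.66), and Btg2 was not called (edgeR adjusted p 0.340). Control library 1 was the lowest of the 6 libraries for all 4 genes.

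Other members of the lists went the opposite way between control libraries. Aen, a nuclease gene of cell death, had 175, 103 and 94.5 CPM in control libraries 1, 2 and 3, and the iron reductase gene Steap3 had 219, 202 and 106 CPM, so that both were highest in control library 1. In fasted libraries 1, 2 and 3 Aen had 84.2, 81.5 and 117 CPM and Steap3 had 151, 176 and 238 CPM. The damage kinase gene Chek2 had 71.6, 48.7 and 29.7 CPM in control and 42.2, 45.9 and 66.5 CPM in fasted libraries.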
